A study of Mus musculus with 16 samples.

Results

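The transcriptome of helpless mice was compared with that of mice left undisturbed in their homecage. The mice of both groups were taken from the sample labels, 4 learned helpless (LH) and 4 homecage (HC) mice, 8 of the 16 mice of the study. All mice were wild type male C57BL/6 mice of 3 months, and 1 RNA-seq library was made from the hippocampi of each mouse. LH mice received 180 inescapable foot shocks of 0.4 mA, were given 30 escape trials with shocks of the same current 24 h later, and were sorted as helpless by their escape failures and latencies; tissue was taken 3 h after the test. HC mice were neither handled nor shocked nor tested, whereas the mice of the other groups were handled repeatedly beforehand and placed in the shuttle box. The control (Ctrl) mice took only the 30 escape trials, and the non-learned helpless (NLH) mice had both sessions but were sorted as resilient; 4 mice of each are cited beside a result where they bear on it. LH vs. HC therefore spans the handling, the exposure to the box, the inescapable shocks, the test and the sorting together, and these cannot be told apart within it. Every library came from a separate animal.

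Learned helplessness is a rodent model of depression-like behavior in which exposure to shocks that cannot be avoided is followed by failure to escape shocks that can. The hippocampus carries high levels of corticosteroid receptors and is a standard tissue for stress studies. Several of the results below concern chaperones. Chaperones of the endoplasmic reticulum (ER), led by Hspa5 (BiP), fold secreted and membrane proteins, and their genes are induced through the unfolded protein response, in which the factors Atf6 and Xbp1 act on the ER stress element. Cytosolic heat shock proteins are induced by heat shock factor 1 (Hsf1).

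The expression levels were FPKM values (fragments scaled to the length of the transcript and the size of the library) of 80137 transcripts, of which 18917 were assembled without a gene name, and FPKM was also summed over the named transcripts of each of 18287 genes. Differences are given on the scale of log2(FPKM + 0.1) as LH minus HC, with the standard error (SE) of a limma fit to the 8 mice. Depth was estimated from the steps between low FPKM values as 31000000 to 33950000 fragments in the HC mice and 20150000 to 28100000 in the LH mice, so every LH library was shallower than every HC library. LH4 and LH3 stood apart from the rest. In LH4, 15504 transcripts were at 0 and 26.7% of the summed FPKM lay in transcripts without a gene name, and LH3 had 10846 transcripts at 0. In the other 6 libraries 5242 to 6852 transcripts were at 0. The summed FPKM was higher in LH1 (150830) and LH2 (158000) than in any HC mouse (122690 to 132080). Results are therefore also given without LH3 and LH4 and after scaling by median-ratio size factors. The summed FPKM of 19 measured excitatory neuron and subfield markers was 357 to 415 in HC and 294 to 519 in LH mice. With no other tissue to set it against, this sum does not check the identity of the tissue.

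The plainest group pattern was in the chaperones, and the promoters of 4 of their genes are shown because each holds an ER stress element. Chaperones here means the genes of a heat shock and ER chaperone list, which also holds regulators such as Xbp1, Hsf1 and Ddit3. Of the 14 chaperone genes that were higher in LH mice, 12 had a promoter in RefSeq (GRCm38.p6, 250 bases before to 50 after the start), and 6 of these (Hspa5, Hsp90b1, Calr, Dnajc3, Pdia6 and Canx) held the element, searched on both strands as CCAAT, any 9 bases and CCACG. It was found for 37 of 27025 gene symbols with a promoter (0.137%). A heat shock element (GAA, TTC and GAA with 2 bases between neighbours, or the reverse complement) was found in 2 of the 12, Hsph1 and Chordc1, in both within the transcribed part, against 0.662% of all symbols. Measured chaperones that did not pass the cutoff held these letters too: Creld2 (0.41) the ER stress element, and Hspd1 (0.08) and Hspe1 (0.03) the heat shock element. These 14 genes were picked by their values, so the shares are a description, and a match of letters is not a site in use. The 220 bases before each start run 5′ to 3′ on the gene's strand, with the element in capitals.

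Hspa5, chr2:34771870-34772089, plus strand: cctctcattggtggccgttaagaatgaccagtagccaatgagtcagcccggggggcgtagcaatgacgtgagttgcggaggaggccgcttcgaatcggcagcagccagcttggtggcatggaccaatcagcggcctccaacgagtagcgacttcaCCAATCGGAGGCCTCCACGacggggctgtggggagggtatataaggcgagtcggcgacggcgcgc

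Hsp90b1, chr10:86705445-86705664, minus strand: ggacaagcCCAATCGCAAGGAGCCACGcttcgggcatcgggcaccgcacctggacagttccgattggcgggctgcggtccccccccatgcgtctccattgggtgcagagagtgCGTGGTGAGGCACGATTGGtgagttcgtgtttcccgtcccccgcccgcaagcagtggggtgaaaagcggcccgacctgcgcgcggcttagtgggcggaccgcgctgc

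Calr, chr8:84846932-84847151, minus strand: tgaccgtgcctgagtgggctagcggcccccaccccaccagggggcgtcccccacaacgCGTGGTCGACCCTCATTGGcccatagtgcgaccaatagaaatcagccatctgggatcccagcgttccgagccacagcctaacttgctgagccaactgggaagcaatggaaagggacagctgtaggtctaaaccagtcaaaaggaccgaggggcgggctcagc

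Dnajc3, chr14:118937712-118937931, plus strand: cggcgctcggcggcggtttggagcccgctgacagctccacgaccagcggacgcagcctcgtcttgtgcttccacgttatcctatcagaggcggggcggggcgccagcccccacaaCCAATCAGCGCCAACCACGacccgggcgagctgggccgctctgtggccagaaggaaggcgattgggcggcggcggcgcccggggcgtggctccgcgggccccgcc

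The element began 65 bases before the RefSeq start in Hspa5, 105 in Dnajc3 and 162 in Calr, and Hsp90b1 held it at 212 and again at 107 bases. GENCODE starts Hspa5 further upstream, at 34771970, so by that annotation its element lies inside the gene.

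Chaperone genes were higher in LH than in HC mice. Of 27 measured genes of a heat shock and ER chaperone list, 14 were higher at an unadjusted p under 0.05 and 0 were lower, while 5.71% of the 17926 genes tested were higher and 2.67% lower at this cutoff. The median difference of the list was 0.49, beside 0.0125 over all genes tested. In 12 of the 27 genes every LH mouse lay above every HC mouse, against 4.6% of all genes, and in 0 did every LH mouse lie below (1.72% of all genes). None of the 14 passed Benjamini-Hochberg adjustment over all genes, with adjusted p of 0.285 to 0.533. The differences of the 14 ran from 0.39 (Hsp90aa1) to 0.97 (Hspa5).

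Among the ER chaperones, Hspa5, the main Hsp70 of this compartment, was at 22.7, 22.4, 21.3 and 23.3 FPKM in the 4 HC mice and at 55.5, 66.8, 26.6 and 38.5 in the 4 LH mice. Its difference was 0.97 ± 0.25 (SE, adjusted p = 0.401). All LH mice were above all HC mice, with LH3 the nearest to them. Calr (calreticulin, a calcium-binding lectin chaperone) was at 52.9 to 54.8 FPKM in HC mice and 105.8, 119.7, 68.3 and 74.0 in LH mice, a difference of 0.73 ± 0.18. Hsp90b1 (Grp94, the Hsp90 of the ER) was at 37.1 to 40.3 in HC and 65.2, 67.3, 45.9 and 45.7 in LH mice (0.53 ± 0.15). For these 3 genes LH1 and LH2 were well above LH3 and LH4, and no LH mouse overlapped with HC mice.

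Dnajc3, a co-chaperone of Hspa5, stayed between 5.26 and 5.51 FPKM in HC mice and reached 9.12, 10.7, 7.95 and 7.27 in LH mice (0.66 ± 0.15). The protein disulfide isomerases Pdia6 (0.68 ± 0.17) and Pdia4 (0.61 ± 0.24) and the lectin chaperone Canx (0.48 ± 0.16) were also higher; for Pdia4 and Canx the groups overlapped, with LH3 at 6.09 FPKM for Pdia4 below all HC mice. Xbp1, a transcription factor of the unfolded protein response, was at 11.2 to 13.1 FPKM in HC and 22.0, 26.9, 13.5 and 16.7 in LH mice (0.65 ± 0.20). Ddit3 (CHOP), the apoptosis-linked factor of the same response, had a mean of 3.82 FPKM in HC and 3.14 in LH mice, a difference of -0.31 that did not pass the cutoff as deposited, passed it as lower with size factors (-0.37) and was 0.03 without LH3 and LH4. It is named here after its value was seen.

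Among the cytosolic heat shock genes, Hspa4l, an Hsp110 nucleotide exchange factor, was at 14.4, 16.1, 15.0 and 16.4 FPKM in HC and 25.2, 24.9, 22.6 and 21.9 in LH mice. Its difference of 0.61 ± 0.11 (adjusted p = 0.285) had the smallest p of the list. Its relatives Hsph1 (0.65 ± 0.13) and Hspa4 (0.49 ± 0.14), the Hsp90 co-chaperone Chordc1 (0.62 ± 0.16), the inducible cytosolic Hsp90 gene Hsp90aa1 (0.39 ± 0.13) and the regulator Hsf1 (0.51 ± 0.15) were higher too, and in each all LH mice lay above all HC mice. Hsf1 was at 0.24 and did not pass without LH3 and LH4 and with size factors. The mitochondrial pair Hspd1 and Hspe1, named after their values were seen, had differences of 0.08 and 0.03. Apart from Hspa4l, Hsph1 and Dnajc3, the chaperones in this and the preceding paragraphs were also singled out after their values were seen.

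**Figure D1:**
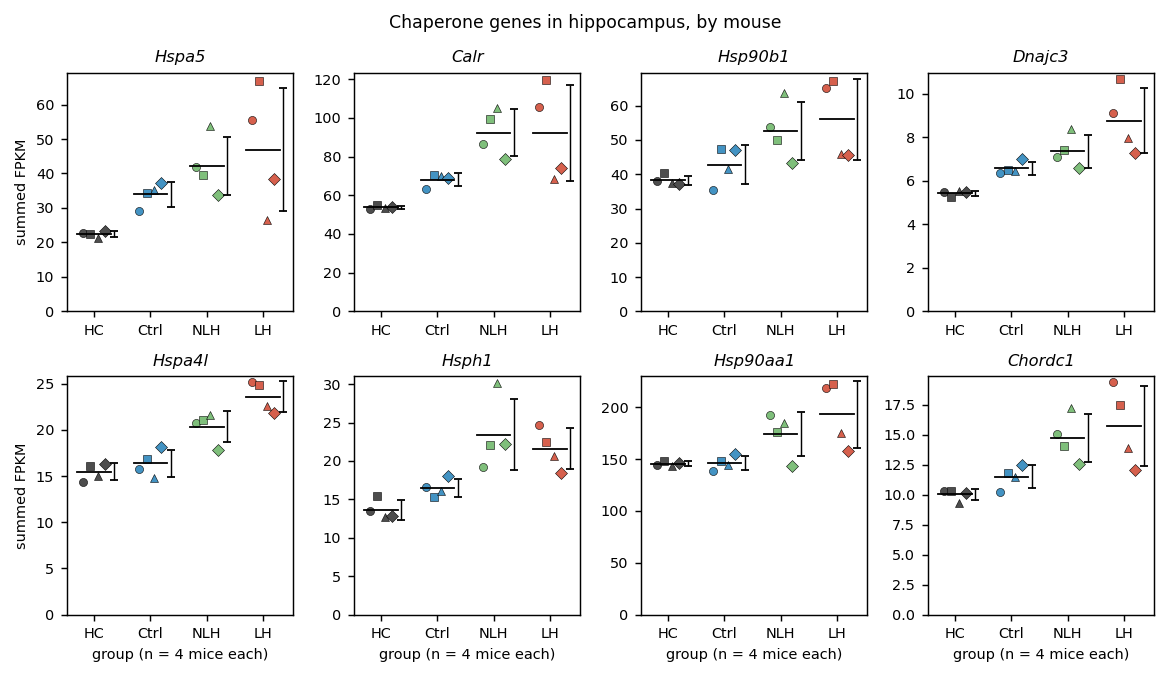
Summed FPKM of 8 chaperone genes in each of the 16 mice, by group on the x axis; marker shapes stand for replicates 1 to 4, horizontal lines for group means and bars beside them for 1 SD (n = 4 mice). For all 8 genes every LH mouse is above every HC mouse, and the LH mice are more spread than the HC mice.

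The chaperone counts were larger without the libraries that stood apart. Without LH3 and LH4, 24 of the 27 were higher and 0 lower, but 26.4% of all genes were then higher and 2.12% lower, and the median over all genes moved to 0.23. With size factors as well, 21 were higher and 0 lower, the list's median was 0.53, and 6.49% of all genes were higher and 6.88% lower. Size factors on all 8 mice gave 17 higher and 1 lower, beside 5.48% and 5.6% of all genes. Choroid plexus markers varied widely in both groups: the summed FPKM of 14 such genes ran from 22.3 to 131 in HC and from 15.6 to 332 in LH mice, highest in LH1 and LH2. Of these 14, 0 passed the cutoff in either direction, with a median difference of 0.40. Without LH3 and LH4 their median was 1.76 with 7 of 14 higher and 0 lower, and with size factors as well it was 1.53 with 4 higher and 0 lower. The choroid sums of LH1 to LH4 were 225, 332, 99.9 and 15.6 FPKM, beside 55.5, 66.8, 26.6 and 38.5 FPKM of Hspa5. Those of HC1 to HC4 were 104, 22.3, 131 and 106, beside 22.7, 22.4, 21.3 and 23.3 of Hspa5. Their part in the chaperone result was not tested.

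**Figure D2:**
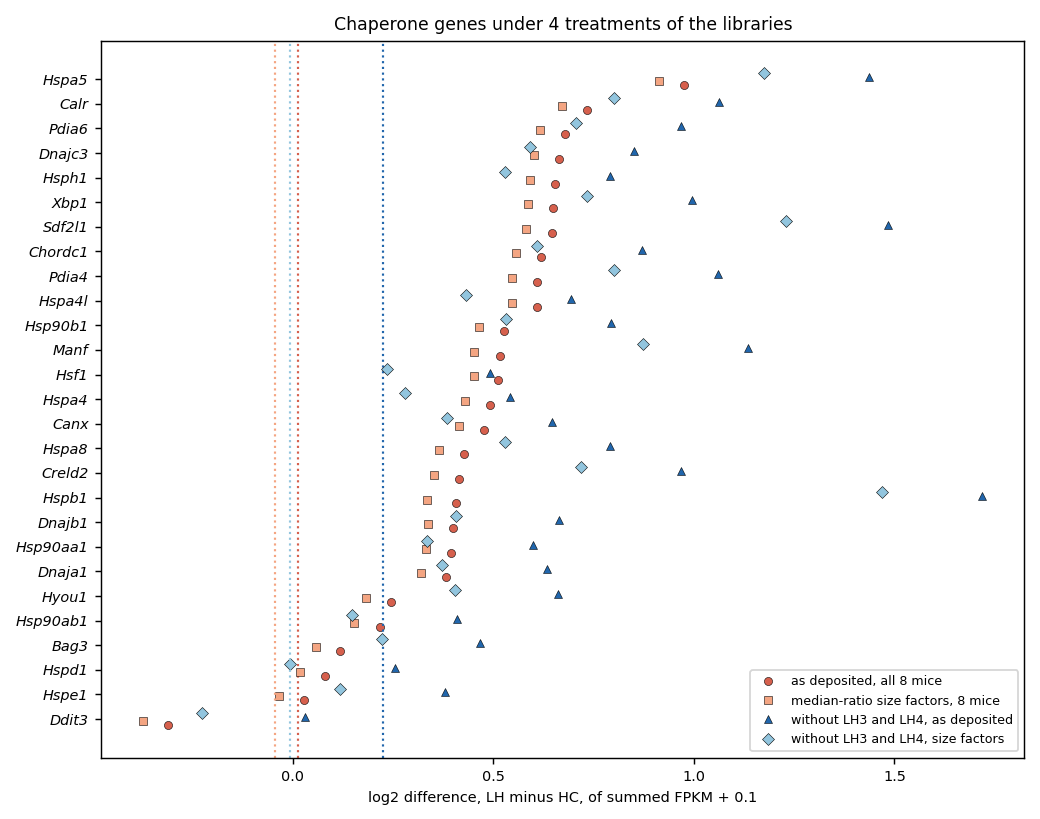
Log2 difference (LH minus HC) of each of the 27 measured chaperone genes under 4 treatments of the libraries; dotted lines of the same colour mark the median of all genes tested. Leaving out LH3 and LH4 as deposited moves the median of all genes to 0.23, and size factors return it to -0.01 while most chaperones stay to its right.

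The level of Hspa5 ran from 29.0 to 37.3 FPKM over the Ctrl mice and from 33.6 to 53.7 over the NLH mice, with means ± SD of 22.4 ± 0.83 for HC, 42.2 ± 8.39 for NLH and 46.8 ± 17.8 for LH mice (n = 4 each). Hspa4l averaged 15.5 ± 0.93 FPKM in HC mice, 16.4 ± 1.42 after the test only, 20.3 ± 1.70 in NLH and 23.6 ± 1.64 in LH mice. In a limma fit to all 16 mice, 11 of the 27 chaperones were higher in LH than in Ctrl mice at an unadjusted p under 0.05, beside 7.17% of all genes, and 2 of 27 were higher in LH than in NLH mice, beside 2.8% of all genes. The list's median was 0.27 for Ctrl minus HC, 0.45 for NLH minus HC, 0.20 for LH minus Ctrl and -0.01 for LH minus NLH. These contrasts share mice with each other. For Hspa5 the difference between LH and NLH mice was 0.08 ± 0.21 (adjusted p = 0.952), an error that leaves room for a difference in either direction.

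Across all genes, 1 of 17926 (0.00558%) passed adjustment, and 1502 passed the unadjusted cutoff, 1023 of them higher and 479 lower in LH mice. The balance of directions depended on scaling: 68.1% of the calls were higher as deposited and 49.5% after size factors. Single mice moved these counts: without HC4, 0 genes passed adjustment by limma and 1061 the unadjusted cutoff, and the latter count was 2977 without LH4 and 995 without HC2. Genes higher in LH mice, 5.71% of all on 8 mice, were 4.00%, 4.82%, 6.94% and 14.2% without LH1, LH2, LH3 and LH4, and 4.14%, 3.57%, 3.51% and 4.11% without HC1, HC2, HC3 and HC4. Genes lower were 3.52%, 4.78%, 2.38% and 2.43% and, for the HC mice, 1.84%, 2.01%, 2.12% and 1.84% in the same order. The counts of the gene lists given below without a mouse are to be read against these shares. The gene past adjustment was the lncRNA ENSMUSG00000110020 (GRCm38 chr7:45830895-45835249, plus strand), annotated as antisense, which overlaps Grwd1 and Grin2d on the minus strand. It was at or below 0.02 FPKM in all 4 HC mice and at 1.07, 1.25, 1.32 and 0.813 in LH mice (3.52 ± 0.29, adjusted p = 0.00546), a difference whose size depends on the pseudocount. It was also at 1.11 and 1.14 FPKM in NLH1 and NLH4 but at 0.12 or less in the other NLH mice. The sources used here do not say whether the reads kept their strand, so its reads cannot be told from those of its antisense partners. With the unnamed transcripts of its locus included, the difference of the locus was 0.48 and did not pass the cutoff.

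Smim10l1 (GRCm38 chr6:133104909-133110899), a gene for a small integral membrane protein, had the largest difference among genes with a mean of at least 1 FPKM that were named by rank of p. It was at 0.991, 0.00, 0.11 and 0.00 FPKM in HC mice and at 12.4, 8.06, 13.4 and 12.3 in LH mice (5.70 ± 0.67, adjusted p = 0.0608). All LH mice were above all HC mice, and it averaged 3.96 ± 1.09 FPKM in Ctrl mice, while NLH1 was at 9.49 and the other NLH mice were near 0.12 or below. With unnamed transcripts of the locus the difference was 3.08 and did pass adjustment. Sult1a1, a sulfotransferase of phenols and catechols, was at 1.29, 1.64, 1.87 and 1.69 FPKM in HC and 4.32, 4.01, 4.44 and 4.42 in LH mice (1.36 ± 0.16, adjusted p = 0.0608), with LH mice within a narrow range. Lztfl1, a regulator of ciliary traffic, was at 3.61 to 4.63 FPKM in HC and 8.20 to 11.9 in LH mice (1.15 ± 0.16, adjusted p = 0.101). Lztfl1 was at 4.36 to 6.14 in the 8 Ctrl and NLH mice, which did not overlap with LH mice, and its LH minus NLH difference was 0.84 ± 0.14 (adjusted p = 0.0978).

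The other 7 genes of the 10 ranked highest by p among those higher in LH mice were Hspa4l, described above, Paip2, Wdr47, Elavl4, Gm13205, Nap1l1 and Rita1. Elavl4 (HuD), a neuronal RNA-binding protein that stabilizes mRNAs, was at 5.31 to 6.44 FPKM in HC and 9.33 to 12.5 in LH mice (0.86 ± 0.14, adjusted p = 0.216). Wdr47, a microtubule-associated protein of neurons, was at 10.5 to 14.1 in HC and 18.8 to 25.4 in LH mice (0.92 ± 0.15). Paip2, an inhibitor of poly(A)-binding protein, had a difference of 0.80 ± 0.12 over its named transcripts but 0.24 over its locus, where it did not pass the cutoff. In these 3 genes no LH mouse overlapped with HC mice. The difference of Gm13205 was 0.76 over its locus and did not pass there.

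Lower in LH mice, by the same rule, were Srrm2, Tenm2, Brd8, Rnf31, C4b, Car7, Rps6kb2, Cirbp, Miat and Gm3764. In all 10 every LH mouse lay below every HC mouse. Srrm2, a splicing factor of nuclear speckles, was at 23.1 to 26.7 FPKM in HC and 13.1 to 16.5 in LH mice (-0.77 ± 0.12, adjusted p = 0.137). Brd8, a bromodomain protein of the NuA4 histone acetyltransferase complex, was at 10.3 to 12.1 in HC and 6.17 to 8.21 in LH mice (-0.62 ± 0.13), and Ctrl mice were as low as LH mice at 6.65 to 7.88. Cirbp, the cold-inducible RNA-binding protein, was at 11.7 to 13.3 FPKM in HC and 7.55, 7.24, 9.10 and 3.53 in LH mice (-0.90 ± 0.26), and Ctrl mice were at 7.78 to 8.82. C4b, a complement component, was at 2.88 to 4.51 in HC and 1.93 to 2.48 in LH mice (-0.70 ± 0.18). Car7, a carbonic anhydrase of neurons, had a difference of -0.77 ± 0.21 over named transcripts but 0.21 over its locus, and Rps6kb2 was at -0.26 over its locus and did not pass.

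Of 28 measured corticosteroid receptor and glucocorticoid response genes, 5 were higher (Sult1a1, Mt2, Plin4, Mt1 and Pdk4) and 1 lower (Hif3a), beside 5.71% and 2.67% of all genes, with a median of 0.17. Without LH4 8 of the 28 were higher, beside 14.2% of all genes. The metallothioneins Mt2 and Mt1 bind zinc and copper, and Mt2 was at 56.2 to 74.8 FPKM in HC and 82.5 to 104.3 in LH mice (0.53 ± 0.13). Plin4, a lipid droplet protein, was low throughout, at 0.02 to 0.224 in HC and 0.255 to 0.613 in LH mice (1.51 ± 0.39), and did not pass without LH3 and LH4 after scaling (1.06). Fkbp5, a glucocorticoid-induced co-chaperone of the receptor, was at 0.619, 3.44, 2.03 and 3.93 FPKM in HC and 5.91, 0.954, 3.92 and 5.66 in LH mice, which overlapped. Its difference of 0.69 ± 0.66 did not pass the cutoff and was 0.10 over the locus. Sgk1, a kinase induced by glucocorticoids, differed by -0.17 ± 0.15, the glucocorticoid receptor gene Nr3c1 by 0.31 ± 0.18 and the mineralocorticoid receptor gene Nr3c2 by -0.25 ± 0.26. None of these 3 passed on the 8 mice as deposited. When LH3 and LH4 were left out and size factors used, all 3 passed (Sgk1 at -0.48, Nr3c1 at 0.36 and Nr3c2 at -0.73). Tsc22d3, a further target, was not analysed here.

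Of 35 measured immediate early and activity-regulated genes, 4 were higher (Arc, Homer1, Egr1 and Dusp6) and 0 lower, beside 5.71% and 2.67% of all genes, with a median of 0.16. The count of 4 became 9 without LH4, where 14.2% of all genes were higher, and 2 without LH1, HC1 or HC2, where 4.00%, 4.14% and 3.57% were. Arc, a cytoskeletal regulator of glutamate receptor uptake, was at 5.40, 7.96, 6.10 and 7.26 FPKM in HC and 12.2, 12.3, 9.04 and 9.64 in LH mice, and LH and HC mice did not overlap (0.69 ± 0.17). Ctrl mice, which took the escape test only, were at 9.28 to 13.9. Fos was at 0.480 to 0.976 in HC and 2.59, 2.17, 1.16 and 0.556 in LH mice (0.89 ± 0.44), with LH4 among the HC mice, and did not pass. Its difference was 1.61 without LH3 and LH4, and 1.37 with size factors as well, and it passed the cutoff in both. Npas4 differed by -0.24 ± 0.29 and Bdnf by 0.07 ± 0.16, and neither passed. Without LH3 and LH4 and with size factors, 11 of the 35 were higher and 0 lower, beside 6.49% and 6.88% of all genes, and Egr1 (0.23) was no longer among them. Among clock genes Per1, which is also induced by activity and glucocorticoids, differed by -0.45 ± 0.57 with LH4 at 1.28 FPKM, and by 0.23 without LH4; Hlf, Clock and Tef, 3 of 23, were higher and 0 lower, a count that became 6 higher without LH4 and 1 without LH1, LH2, HC2 or HC4. The direction depended on scaling. With size factors 3 clock genes were higher and 3 lower, beside 5.48% and 5.6% of all genes. Without LH3 and LH4 as well 1 was higher and 5 lower, beside 6.49% and 6.88%, with Hlf (0.17) and Clock (0.19) no longer passing. Over its locus Tef differed by 0.20 and did not pass.

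At the synapse, 4 of 26 scaffold and adhesion genes were higher and 0 lower beside 5.71% and 2.67% of all genes (7 higher without LH4 and 2 without HC2, beside 14.2% and 3.57%). These were Homer1, a postsynaptic scaffold, and Lrrtm2, Lrrtm3 and Lrrtm4, which encode postsynaptic adhesion proteins that bind neurexins or heparan sulfate. Lrrtm2 was at 6.71, 4.88, 4.85 and 5.79 FPKM in HC and 12.2, 8.96, 8.64 and 10.3 in LH mice (0.84 ± 0.16). The groups did not overlap, and the difference was 0.65 without LH3 and LH4 after scaling. Of 14 ionotropic glutamate receptor genes 0 passed in either direction, while 6 were higher without LH3 and LH4 (beside 26.4% of all genes) and 2 lower with size factors (beside 5.6%). With both changes 0 were higher and 3 lower, beside 6.49% and 6.88%. Grm8, a presynaptic metabotropic receptor and 1 of 7 in its list, was at 2.47 to 2.79 in HC and 3.73 to 4.49 in LH mice (0.65 ± 0.14). Gabra2, an alpha subunit of the GABA-A receptor, was the 1 of 20 GABA genes that passed (0.54 ± 0.21), with LH4 at 8.71 FPKM inside the HC range. Of the 20 GABA genes 16 were higher when LH3 and LH4 were left out, beside 26.4% of all genes, and 1 was higher and 1 lower after scaling as well, beside 6.49% and 6.88%. Of 28 calcium and cAMP signalling enzymes, 4 were higher: the calcineurin subunits Ppp3cb (0.45 ± 0.13) and Ppp3r1 (0.30 ± 0.12) and the regulatory subunits of protein kinase A Prkar2b (0.48 ± 0.17) and Prkar2a (0.66). Without LH4 15 of the 28 were higher, beside 14.2% of all genes, and without LH1 or HC3 2. With size factors 5 were higher and 2 lower, beside 5.48% and 5.6% of all genes. Without LH3 and LH4 as well 5 were higher and 1 lower, beside 6.49% and 6.88%, with Prkar2b (0.34) no longer passing.

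The counts of the remaining lists stand beside 5.71% of all genes higher and 2.67% lower on all 8 mice, 14.2% and 2.43% without LH4, 26.4% and 2.12% without LH3 and LH4, 5.48% and 5.6% with size factors, and 6.49% and 6.88% without both mice and with size factors. The neuropeptide Vip was at 0.911 to 1.76 FPKM in HC and 1.91 to 3.57 in LH mice (1.04 ± 0.27), the 1 of 16 neuropeptides to pass, and did not pass without LH3 and LH4 after scaling (0.59). Of 14 interneuron markers, Vip and Cnr1 were higher and Adarb2 was lower (-0.49 ± 0.17). The difference of Cnr1, the main cannabinoid receptor of the brain, was 0.67 over its named transcripts but 0.05 over its locus and 0.61 with size factors, and it did not pass in either of these. Of 44 histone and DNA modifying enzymes 4 were higher, among them the remodeler ATPase Smarca2, at 23.8 to 30.9 in HC and 39.2 to 46.0 in LH mice (0.58 ± 0.12), and the deacetylase Sirt1 (0.51 ± 0.15), and without LH4 10 were higher. Scaling and leaving out LH3 and LH4 gave 1 of the 44 higher and 3 lower, and neither Smarca2 (0.32) nor Sirt1 (0.24) passed. Splicing factors gave 7 of 36 higher and 2 lower, with Srsf7 (0.61 ± 0.17), Tra2b (0.43 ± 0.15) and Srsf3 (0.34 ± 0.12) higher and Rbfox3 and Clk4 lower; the difference of Srsf3 did not pass with size factors (0.28) and was 0.0022 without LH3 and LH4 after scaling. The count of 7 became 12 without LH4, 4 without HC3, 3 without LH1, LH2 or HC4 and 2 without HC2. Cytosolic ribosomal protein genes gave 2 of 74 higher and 3 lower, among them Rpl12 at 28.2 to 34.8 FPKM in HC and 9.74 to 23.3 in LH mice (-0.83 ± 0.25). The 3 lower became 6 without LH1 or LH2 and 1 without LH3 or LH4. With size factors 2 were higher and 9 lower, and without LH3 and LH4 as deposited 37 were higher and 1 lower, or 6 and 4 after scaling. The respiratory chain gave 3 of 68 higher, cholesterol synthesis 3 of 21, neurotrophin and growth factor signalling 3 of 19 and calcium and potassium channels 2 higher and 1 lower of 28. With size factors the channels gave 1 higher and 2 lower, and without LH3 and LH4 as well 0 and 5. Without LH4 the respiratory chain gave 14 of 68 higher, and 42 without LH3 and LH4, which became 8 higher and 1 lower after scaling, and 1 without HC2. With size factors on all 8 mice the respiratory chain gave 7 higher and 2 lower. Cholesterol synthesis gave 5 without LH4 and 1 without HC2 or HC3, and growth factor signalling 1 without LH1 or HC2. Without LH3 and LH4 cholesterol synthesis gave 11 higher and 0 lower, which became 1 and 1 after scaling. Growth factor signalling gave 7 and 0, which became 2 and 2. Presynaptic release genes gave 1 of 25 higher, 17 without LH3 and LH4, 4 higher and 1 lower with size factors, and 2 higher and 0 lower with both. Metabotropic glutamate receptors gave 6 of 7 higher without LH3 and LH4 and 1 with size factors as well. On all 8 mice monoamine receptors gave 1 higher and 1 lower of 12, and without LH3 and LH4 5 higher and 0 lower, which became 1 and 0 after scaling.

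Among 18 long noncoding RNAs, 4 were lower in LH mice and 1 was higher, beside 2.67% and 5.71% of all genes. Leaving out LH3 and LH4 with size factors gave 7 lower and 1 higher, beside 6.88% and 6.49%. Miat (Gomafu), a nuclear lncRNA of neurons, was at 24.6, 27.0, 21.2 and 21.8 FPKM in HC and 18.8, 18.4, 12.3 and 15.4 in LH mice (-0.55 ± 0.16, adjusted p = 0.431). Gas5, a snoRNA host gene, was at 25.1 to 30.3 in HC and 16.7 to 24.7 in LH mice (-0.44 ± 0.14). LH and HC mice did not overlap for either. Neat1, the scaffold of paraspeckles, differed by -0.37 ± 0.14 with overlap, and Epb41l4aos by -1.69 ± 0.50 with LH1 at 4.51 FPKM inside the HC range. Dlx6os1 (Evf2), a lncRNA of GABAergic neurons, was at 2.16 to 2.57 in HC and 3.16 to 5.58 in LH mice (0.72 ± 0.19).

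Among markers of other cell types, the choroid plexus list described above had the median furthest from 0 (0.40). Of 14 astrocyte, 14 microglia, 8 oligodendrocyte precursor and 4 red blood cell markers, 0 passed the cutoff on all 8 mice, and of 14 oligodendrocyte and 14 endothelial or pericyte markers 1 each was higher (Ermn and Flt1). Flt1 was at 1.43 to 2.72 FPKM in HC and at 4.31, 3.88, 2.76 and 10.6 in LH mice, with LH4 far above the other mice. Without LH3 and LH4, 11 of the 14 astrocyte markers were higher, beside 26.4% of all genes, and 2 with size factors as well. Of 12 striatal markers 2 were higher, among them Drd1 (0.764 to 0.982 FPKM in HC and 1.14 to 1.41 in LH mice; 0.27 and not passing without LH3 and LH4 after scaling), while Adora2a, Penk and Drd2 stayed below 1 FPKM in all 8 mice. Of the hippocampal neuron markers 1 of 19 was higher, Neurod6, and 0 were lower. With size factors 0 were higher and 3 lower, beside 5.48% and 5.6% of all genes. Without LH3 and LH4 5 were higher and 0 lower, and 1 and 0 with size factors as well. A change in the number of cells of a type and a change in RNA per cell cannot be told apart in tissue RNA.

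**Figure D3:**
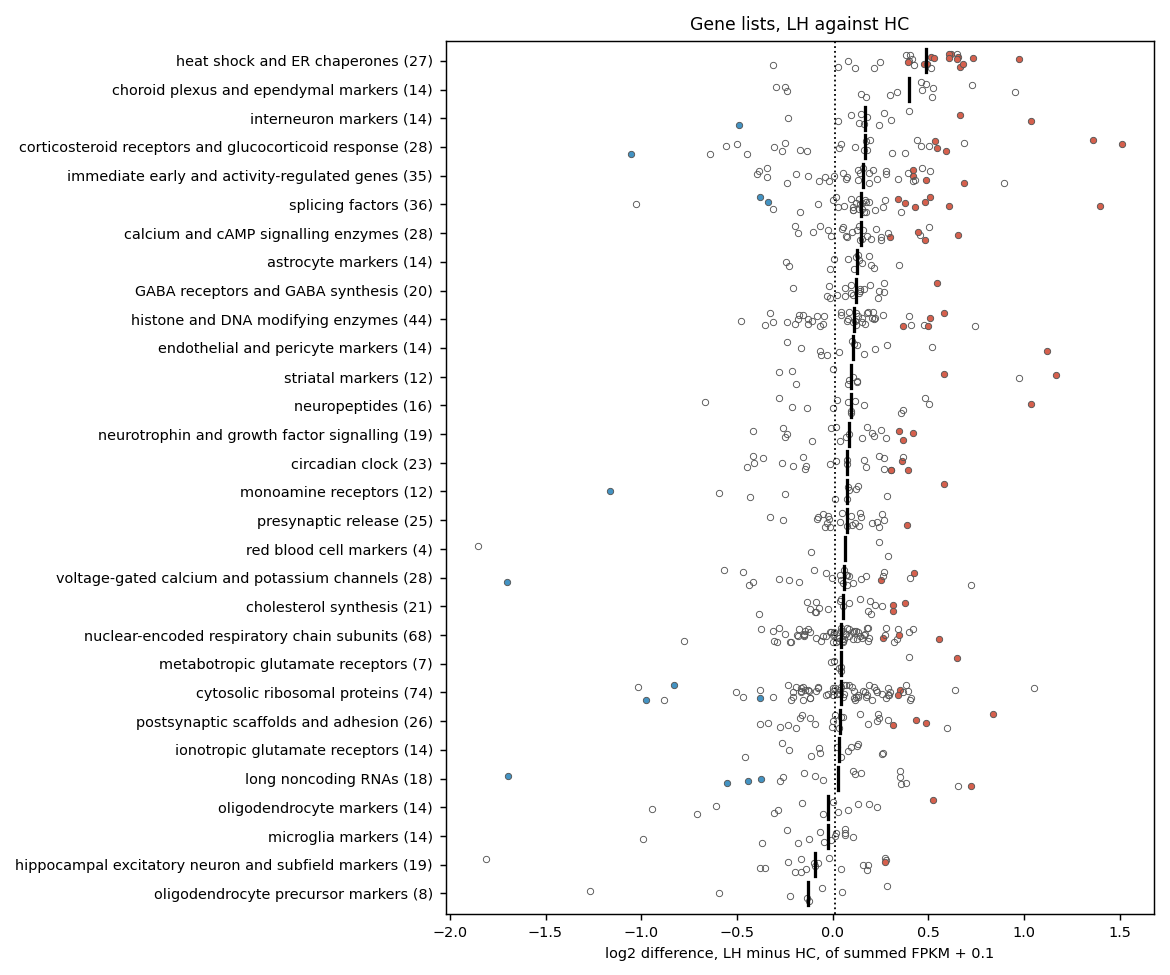
Log2 difference (LH minus HC) of every measured gene of 30 lists, with the number measured in parentheses. Filled circles passed the unadjusted cutoff (red higher, blue lower in LH), thick bars are list medians and the dotted line is the median of all genes tested (0.0125); the chaperones lie furthest to the right, with a median of 0.49.

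By transcript, 10 of 78116 tested by limma passed adjustment (0.0128%), 3 higher and 7 lower in LH mice. Their number was 73 without LH2, 2 without HC1 or HC3 and 0 without HC4, where 4831 still had an unadjusted p under 0.05. With the study's own test, an equal-variance comparison of FPKM between groups at an unadjusted p under 0.05, 2732 of 79020 transcripts were higher (3.46%) and 3761 lower (4.76%). This balance turned with the libraries, to 4944 higher and 3526 lower without LH4 and 8352 and 3116 without LH3 and LH4, and was 2037 and 4716 with size factors. Transcripts that passed the study's test were also split by the type that the deposited table gives, which is that of the gene and the same for all its transcripts. They were 7.3% of transcripts of protein coding genes, 7.55% of those of lncRNA genes and 11.5% of the assembled transcripts without a gene name. These shares are of the 78116 transcripts tested by limma. Direction went with level: among transcripts with a mean of at least 1 FPKM 1947 were higher and 1116 lower. Of 11108 genes with several named transcripts, 3031 had a transcript that passed, 297 of these had transcripts that passed in both directions, and in 646 (21.3%) the summed gene passed the unadjusted limma cutoff.

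The transcripts past adjustment were near 0 in all mice of 1 group. The sum over the locus overlapped between groups for Ly6e and Itsn1 but not for Enah and Mllt10. A coding transcript of Enah (ENSMUST00000111025.7), an actin regulator of axons, was at 0.0139 FPKM or less in HC mice and at 4.13, 2.09, 3.72 and 7.05 in LH mice (adjusted p = 0.013). Its 11 other named transcripts together were at 19.5 to 24.0 in HC and 17.5 to 24.2 in LH mice, which overlapped, while the whole locus was at 21.6 to 25.8 and 26.6 to 28.4. A transcript of Ly6e (ENSMUST00000188042.1), a membrane-anchored surface protein, was at 0.14 or less in HC and 3.05 to 6.14 in LH mice (adjusted p = 0.013), while the sum over the locus was 28.4 to 35.4 in HC and 28.7 to 47.5 in LH mice.

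Of the transcripts that were lower, 1 of Itsn1 (ENSMUST00000124094.7, annotated as a processed transcript of 442 bases; Itsn1 is a scaffold of endocytosis) was at 4.07, 6.47, 3.31 and 8.69 FPKM in HC mice and below 0.001 in all LH mice (adjusted p = 0.00759). The sum over the Itsn1 locus overlapped, at 14.3 to 21.1 in HC and 9.91 to 15.5 in LH mice. A 245-base transcript of Mllt10 was at 2.10 to 9.88 in HC and listed at 0 in all LH mice (adjusted p = 0.0321), beside 15.4 to 23.5 in HC and 12.3 to 13.7 in LH mice over its locus. A value of 0 for 1 of several overlapping transcripts can be a failed estimate, and how reads were shared among them was not tested.

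**Figure D4:**
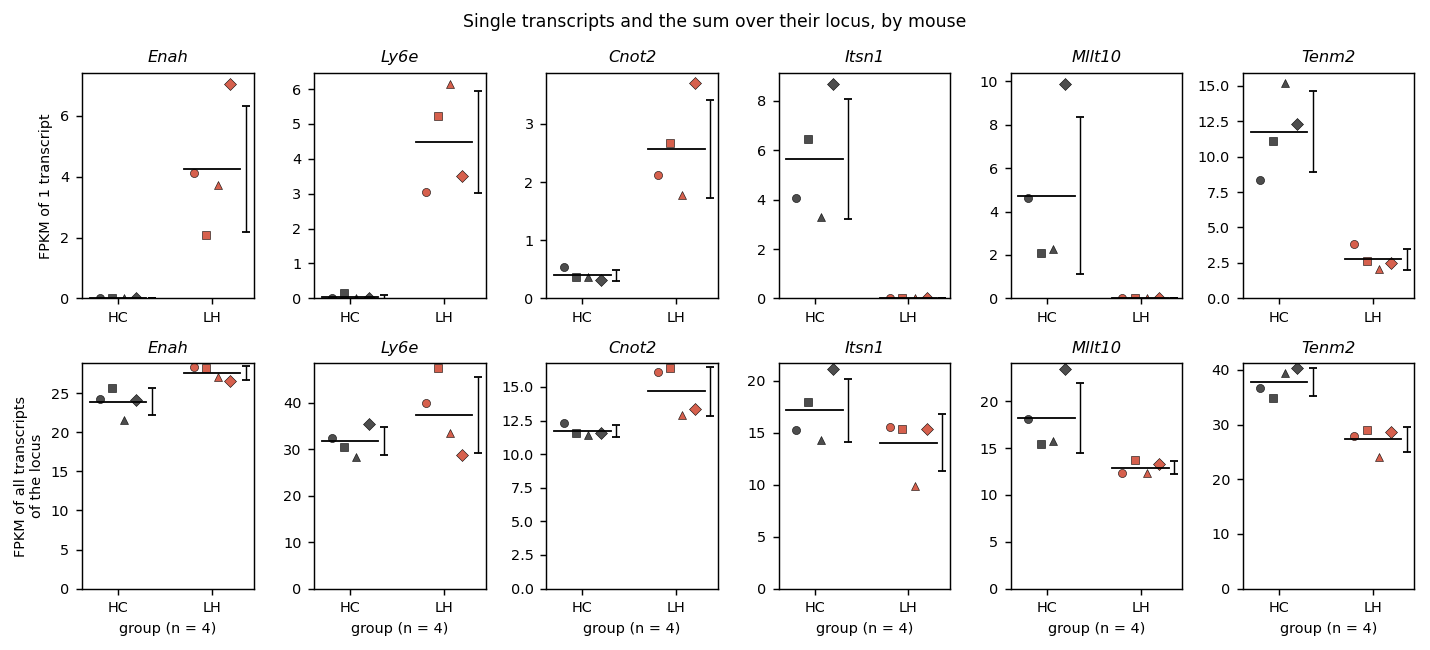
FPKM of a single transcript (upper row) and of all transcripts of the same locus, unnamed ones included (lower row), in HC and LH mice for 6 genes; marker shapes are replicates 1 to 4, lines are means and bars 1 SD (n = 4 mice). The single transcripts separate the groups, while the sums over the locus overlap for Ly6e and Itsn1.

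Of the named transcripts that averaged at least 1 FPKM, the next by p were those of Cnot2, Rsbn1, Sult1a1 and Smim10l1 among the higher and of Tenm2 and Csnk1d among the lower, with adjusted p of 0.0542 to 0.0875. The Sult1a1 transcript (ENSMUST00000106373.7) carried the difference of its gene, at 0.675 to 1.11 FPKM in HC and 3.01 to 3.48 in LH mice, while its other named transcripts overlapped at 0.529 to 0.974 and 0.524 to 1.41. The Smim10l1 transcript was at 8.06 to 13.0 in LH mice, and in LH4 another named transcript of the gene was at 2.08. The Tenm2 transcript (368 bases, from a teneurin adhesion gene) was at 8.37 to 15.2 FPKM in HC and 2.07 to 3.81 in LH mice, and the sum over the locus was 34.9 to 40.4 in HC and 24.0 to 29.0 in LH mice. For Tenm2 the groups were thus apart at both levels.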

How the data were processed

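Hippocampal RNA from 16 mice (4 per group) had been sequenced, and the 8 LH and HC mice were compared. Per the authors' methods, reads (paired, 150 bases) were aligned to mm10 with HISAT2, transcripts were assembled and merged with StringTie, and the deposited FPKM values per transcript came from Cufflinks after a filter. The submitters' processing notes name STAR 2.42a, StringTie 1.2.3 and Cufflinks. Gene FPKM was summed here over named transcripts. The test was limma 3.58.1 (R 4.3.3; trend and robust moderation) on log2(FPKM + 0.1) with Benjamini-Hochberg adjustment over all features that varied, beside counts at an unadjusted p under 0.05, the cutoff of the study's Student's test. That test was run on FPKM with equal variances. Contrasts with Ctrl and NLH used all 16 mice. The smallest two-sided p of an exact permutation with 4 mice a group is 0.0286. Read counts were not used; depth was estimated from FPKM steps of 1343 loci with 1 transcript over 2000 bases, taking fragments as 200 bases long. Fits were tested on simulated data. Figures used matplotlib 3.10.9 under Python 3.11.15.

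The comparison, members and 30 gene lists were chosen with earlier results of these data known. The genes named were the 10 with the smallest p in each direction at a mean of at least 1 FPKM, the 6 such transcripts in each direction, 11 stress and activity genes, up to 3 members of smallest p in each list and those marked as named after their values were seen. Other list members were named, after their values were seen, because they passed the cutoff or mark a cell type. Coordinates come from GENCODE vM21 (GRCm38) and promoters from RefSeq. Replicate numbers were not used to pair the mice in the main fits. Alternatives changed the pseudocount, level filter, scaling, mice fitted, weights, block and test. Some genes that these rules name are not reported here.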

Additional observations from a re-analysis of the deposited data

Results flagged for a closer look

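In single groups of 4 mice, 12 of 210 sets of values held 1 mouse far from the other 3 by Dixon's test. Of these, 11 were among HC mice and 1 among LH mice. For independent sets the test flags 1 in 20 by chance. These sets overlap and were partly picked by their values, so the flags cannot be weighed against that rate. Rpl30 was at 70.22 FPKM in HC1 and 21.84 to 26.05 in the other HC mice, the group its lower level in LH mice was set against. Smim10l1 was at 0.99 FPKM in HC1, gene and transcript alike, and at 0.11 or less in the other HC mice. Among genes of narrow HC range, Chordc1 was at 9.33 in HC3 (others 10.18 to 10.3), Gas5 at 25.06 in HC3 (29.74 to 30.33), Gm3764 at 13.16 in HC1 (10.89 to 11.26), Gsk3b at 26.01 in HC2 (27.4 to 27.68) and Hspa4 at 18.45 in HC4 (17.5 to 17.56). Near the floor, ENSMUSG00000110020 was at 0.02 in HC2, the Enah transcript at 0.01 in HC3 and the Ly6e transcript at 0.14 in HC2, with the other HC mice below 0.01, and the Csnk1d transcript was at 0.17 in LH2, with the other LH mice at 0.02 or less. None of the named genes differed between LH and NLH mice at an adjusted p under 0.05 (limma, 16 mice); the smallest was that of Lztfl1 (adjusted p = 0.0978).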

How the results depend on the processing

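The count of genes past adjustment (1) became 3 with a pseudocount of 1, 2 with a mean of at least 1 FPKM, 31 with all 16 mice, 564 with sample weights, 1471 without LH3 and LH4, 17 without them and with size factors, 2 with Student's test on FPKM, and 0 to 2 when 1 mouse was left out (0 without HC4). The count at the unadjusted cutoff (1502) became 2415 with 16 mice, 3977 with weights, 5090 without LH3 and LH4, 2388 with size factors as well, and 995 (without HC2) to 2977 (without LH4) when 1 mouse was left out. For transcripts past adjustment (10) it became 6 and 0 with pseudocounts of 0.01 and 1, 0 at a mean of at least 1 FPKM, 65 with size factors, 112 with 16 mice, 19 with weights, 64 without LH3 and LH4, 30 with size factors as well, and 0 (without HC4) to 73 (without LH2) with 1 mouse left out. Where limma gave 0 transcripts, 6163 (pseudocount of 1), 2818 (mean of at least 1 FPKM), 5056 (block) and 4831 (without HC4) had an unadjusted p under 0.05. Transcripts by the methods' test (6493) became 3063 at a mean of at least 1 FPKM, 11468 without LH3 and LH4, 9 after adjustment, and 4836 to 8470 with 1 mouse left out. The cause was not tested in any of these.

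Same-numbered mice did not deviate together over genes (r of -0.0984 to 0.0536, beside -0.106 to 0.124 for mice of unlike number). A correlation over all genes cannot exclude a shared cage or batch that touches some of them. With a replicate block, 0 genes and 0 transcripts passed adjustment, 1175 genes passed the unadjusted cutoff and 4666 transcripts the paired form of the methods' test.

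With size factors Cnr1 (0.61), Cacnb2 (0.36), Srsf3 (0.28), Neurod6 (0.21) and Kcna2 (0.19) lost the unadjusted cutoff and Nr3c1 (0.25) gained it. Without LH3 and LH4 as well, the genes that lost it included these but Kcna2, which changed sign, and also Atp5l, Clock, Drd1, Egr1, Ermn, Ezh1, Fdps, Gsk3b, Hlf, Hsf1, Htr3a, Plin4, Prkar2b, Rpl30, Rpl6, Sirt1, Smarca2, Uqcrb and Vip, and 4 gained it (Fos, Nr3c1, Nr3c2 and Sgk1). Some named genes changed direction. With size factors and without LH3 and LH4 the differences were -0.0436 for Bdnf, -0.0282 for Fkbp5, -0.0183 for Kcna2 and 0.0584 for Per1. Without LH3 and LH4 alone they were 0.0739 for Npas4 and 0.318 for Per1, and with weights 0.0134 and 0.287. With 1 mouse left out Per1 ran from -0.804 (without LH1) to 0.228 (without LH4). Summed per locus, Car7 was at 0.208 and Kcnq5 at 0.0165. The chaperone count (14) ran from 13 to 20 with 1 mouse left out, was 15 per locus and 13 with Student's test. The alternatives that summed loci, or joined scaling with leaving out LH3 and LH4, were chosen after seeing the data.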
